A study of Mus musculus with 2 samples.

Results

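The genes described here are 34 genes of glucose uptake, glycolysis, lactate handling and the response to low oxygen, named in a fixed list, out of 32285 genes counted. They were followed in leukocytes of brown adipose tissue (BAT) by single-cell RNA sequencing. CD45+ cells, the leukocytes of the tissue, were sorted from a collagenase digest and captured in 1 droplet library per condition. Both libraries came from male AdipoQ-CreERT2 ATGLfl/fl mice on C57Bl/6, which carry floxed alleles of the triglyceride lipase ATGL and a Cre recombinase that tamoxifen activates. The control mice received vehicle. The other mice received tamoxifen at 10 mg/ml, 200 µl into the peritoneum every 2 days for 1 week followed by 2 weeks of rest, and are called Adipo Δ/Δ. The labels give an age of 16 weeks for both groups, while the text of the study gives a younger age. The AdipoQ promoter drives Cre in mature adipocytes, so the leukocytes measured here were not the targeted cells, and vehicle and tamoxifen differ between the groups along with the deletion. How many mice were pooled in a library is not stated, and with 1 library per condition no value has an error between mice.

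Glycolysis splits glucose into pyruvate in the cytosol. Glucose enters through the SLC2A transporters, is trapped by hexokinase, and is cut into trioses from which the lower enzymes draw ATP. Pyruvate then goes into mitochondria or is reduced to lactate by lactate dehydrogenase and leaves the cell through monocarboxylate transporters. When oxygen is short, or in activated myeloid cells, the transcription factor HIF-1α escapes the prolyl hydroxylases and switches on many of these genes together with BNIP3, ERO1L, P4HA1 and NDRG1. Neutrophils are known for a strong reliance on glycolysis.

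The core of the hypoxia response element that HIF-1 binds reads ACGTG or GCGTG. Both strings were searched on both strands in the 250 bases before each start site of the RefSeq table (build GRCm38.p6), where 31 of the 34 genes matched by symbol with 44 windows. ACGTG occurred in 21 of these windows (47.7%), against 16.6% of all 32851 windows, and GCGTG in 25 (56.8%), against 28.2%. The windows of the set were richer in G and C than all windows, with a median of 62.2% against 52.4%, and both strings are rich in these bases. The palindrome CACGTG, which holds ACGTG on both strands and is counted in both, was present in 6 windows (13.6%) against 6.02% of all. The list names hypoxia response genes by design, so a share above that of all windows is not a test. Some windows of the same gene overlap, as for Aldoa and Eno1, so a match can be counted more than once. A match is a description of letters and not a site shown to be bound. Windows are shown for 3 genes that stood higher in Adipo Δ/Δ macrophages (Ldha, lactate dehydrogenase; Pgk1, phosphoglycerate kinase; P4ha1, a collagen prolyl hydroxylase) and for Eno3, the enolase of 1 monocyte cluster. They are written 5′ to 3′ on the strand of the gene, with matches to either string in capitals, which read CACGT or CACGC where the match is on the other strand. The Ldha window, 1 of 2 for this gene, lies at chr7:46845554-46845803 on the plus strand, the Pgk1 window at chrX:106186850-106187099 (plus), the P4ha1 window at chr10:59323046-59323295 (plus) and the Eno3 window at chr11:70656926-70657175 (plus).
Ldha: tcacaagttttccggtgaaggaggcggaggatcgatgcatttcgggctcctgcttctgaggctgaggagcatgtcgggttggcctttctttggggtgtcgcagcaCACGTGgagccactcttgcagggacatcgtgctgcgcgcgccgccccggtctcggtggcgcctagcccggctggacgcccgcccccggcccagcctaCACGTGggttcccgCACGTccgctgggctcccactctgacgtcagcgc
Pgk1: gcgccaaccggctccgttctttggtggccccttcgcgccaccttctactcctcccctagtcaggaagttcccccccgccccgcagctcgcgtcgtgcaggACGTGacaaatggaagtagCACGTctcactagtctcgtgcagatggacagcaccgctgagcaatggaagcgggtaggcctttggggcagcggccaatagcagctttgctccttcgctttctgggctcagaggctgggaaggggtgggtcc
P4ha1: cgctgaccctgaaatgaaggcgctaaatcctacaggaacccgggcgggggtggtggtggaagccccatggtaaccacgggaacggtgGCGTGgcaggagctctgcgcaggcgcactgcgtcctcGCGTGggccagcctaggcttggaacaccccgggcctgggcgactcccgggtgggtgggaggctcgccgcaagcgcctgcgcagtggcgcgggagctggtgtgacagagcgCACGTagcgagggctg
Eno3: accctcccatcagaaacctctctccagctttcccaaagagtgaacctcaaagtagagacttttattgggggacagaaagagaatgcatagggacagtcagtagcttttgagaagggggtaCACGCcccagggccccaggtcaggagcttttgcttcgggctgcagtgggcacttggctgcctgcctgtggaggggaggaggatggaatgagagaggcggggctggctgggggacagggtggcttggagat
The Ldha window held 5 matches to ACGTG, of which 4 came from 2 palindromes. Pgk1 held 2, P4ha1 held 1 together with 2 of GCGTG, and Eno3 held 1 match to GCGTG and none to ACGTG. The other Ldha window held 1 match to GCGTG and none to ACGTG. Of the other genes that stood higher in Adipo Δ/Δ macrophages, Slc2a1, Hk3, Aldoa, Pgam1, Pkm and Pdk3 held ACGTG in at least 1 window. Tpi1, Gapdh and Eno1 lacked it, and Ero1l had no window. The Tpi1 window held neither string, and the windows of Gapdh and Eno1 held GCGTG only. Whether matches go with the ratios between the libraries was not tested.

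The control library held 2597 barcodes and the Adipo Δ/Δ library 2381, of which 2279 and 2016 passed as cells, with 10753113 and 11316418 counted transcripts (unique molecular identifiers, UMIs). Levels are given as CPM, the summed UMIs of a gene in a group of cells over all UMIs of these cells, scaled to a total of 1e6 and followed by an exact 95% Poisson interval. Reads were counted at the 3′ end, so levels were compared for 1 gene across cells. Where isoforms are set side by side, capture of their 3′ ends can differ. All intervals cover counting error only, and in a pair of values the control comes first. The 34 genes were left out of the features for clustering, so that they did not draw the borders of the 18 clusters. Cluster names ending in "-like" rest on marker lists. The macrophage-like class joined a cluster led by Folr2 and Lyve1 (M2-like), a cluster led by Lyz1, Retnla, Fcrls and Ecm1 (matrix) and a lipid-associated cluster led by Gpnmb, Cd63 and Trem2. The matrix cluster scored -0.85 on the general macrophage list, with 8 of its markers detected, and entered the class through its subset list. The cells led by Gm26917, Dab2 and Pid1 (52 in the control and 210 after deletion, 2.28% and 10.4% of cells) scored 0.90 on the macrophage list, short of the 1 required, and were left out of every class. The libraries shared 4 barcodes.

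For most genes of the set the highest class was the same in both libraries. Of 32 genes with at least 50 UMIs in the 7 main classes, this was so for 24. Neutrophil-like cells were the highest class in both libraries for 12 genes, NK cell-like and monocyte-like cells for 4 each, T cell-like cells for 2, and macrophage-like and dendritic cell-like cells for 1 each. The same counts were not made over all genes, so they do not show whether the set differs from other genes in this.

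**Figure D1:**
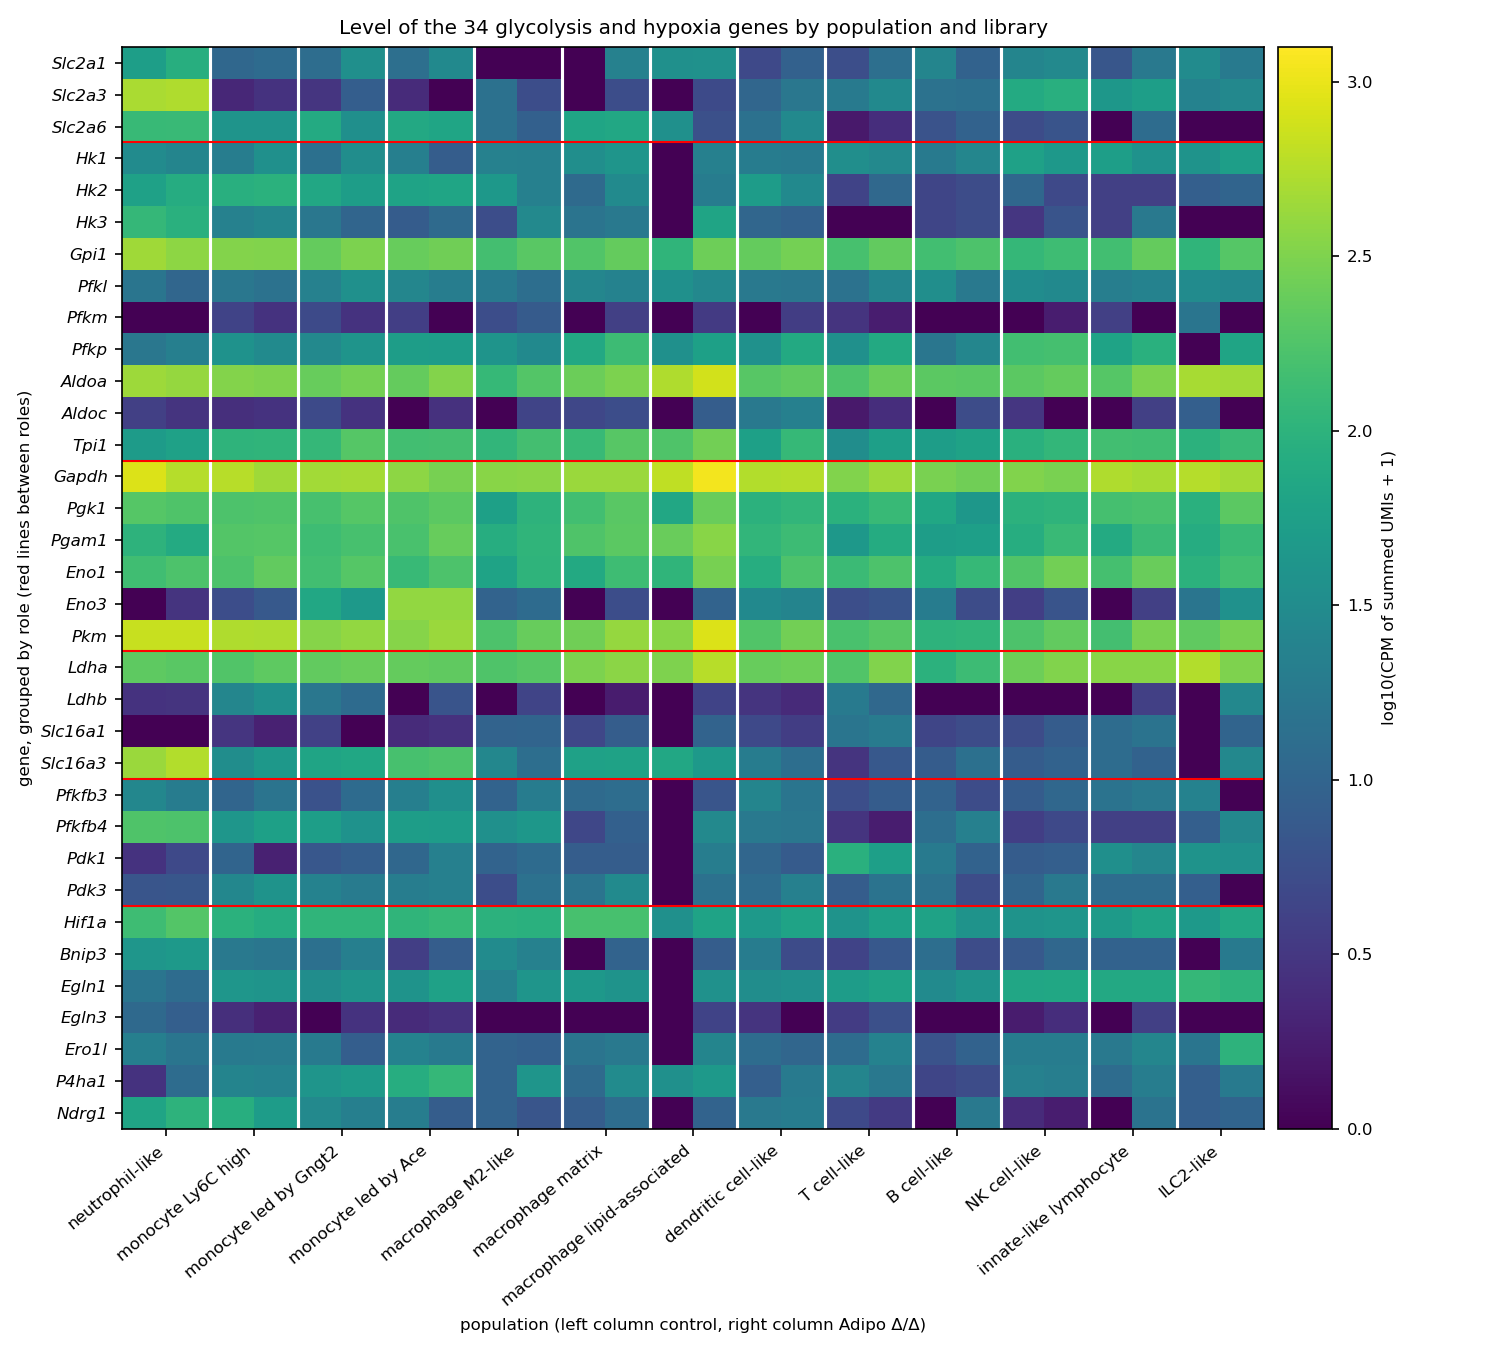
Level of each of the 34 genes (rows, grouped by role) in 13 populations (columns, control left and Adipo Δ/Δ right), as log10 of CPM + 1. Slc2a3 and Slc16a3 were brightest in neutrophil-like cells, and Eno3 in the monocyte cluster led by Ace. The lipid-associated column of the control rests on 12 cells.

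Glucose transporters divided the myeloid cells. Slc2a3, which encodes the high-affinity transporter GLUT3 (chr6:122727809-122801640 on GRCm38, minus strand), stood at 513 CPM (471-558) in neutrophil-like cells of the control and 535 CPM (474-601) in those of the Adipo Δ/Δ library. It was near zero in Ly6C high monocytes, at 1.22 CPM and 1.84 CPM. A UMI of Slc2a3 was found in 67.8% of control and 66.5% of Adipo Δ/Δ neutrophil-like cells, and in 0.872% and 1.32% of Ly6C high monocytes, although the monocytes were deeper (median 7029 and 6456 UMIs per cell against 2968.5 and 2720). After thinning every cell to 1000 UMIs the neutrophil shares were 37.9% and 40.1%. The lymphoid cells with the most Slc2a3 were the NK cell-like cells, at 77.3 CPM and 88.4 CPM. Slc2a6, a transporter of myeloid cells, was highest in neutrophil-like cells at 122 CPM (102-145) and 125 CPM (96.8-159) and made up most of the family in Ly6C high monocytes and in matrix macrophages. Its share of the UMIs of the 3 transporters was 78.2% (69.9-85.1) and 75.4% (62.2-85.9) in Ly6C high monocytes, and 100% (18 of 18 UMIs) and 73.1% (64.8-80.4) in matrix macrophages. In the monocyte cluster led by Gngt2 it had 79 of 93 UMIs in the control and 18 of 40 in the Adipo Δ/Δ library, and its level was 78.5 CPM and 33.6 CPM, a ratio of 0.428 (0.241-0.721). Slc2a1, which encodes the ubiquitous GLUT1, was highest in neutrophil-like cells at 54.4 CPM and 87.2 CPM. In lipid-associated macrophages of the Adipo Δ/Δ library it formed 80.4% (67.6-89.8) of the family, and it was not detected in M2-like macrophages, at 0 of 64 and 0 of 135 cells, which allows a share of cells with a UMI of up to 4.69% and 2.22% and sets no limit on cells that express the gene.

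The hexokinases, which commit glucose to the cell, also differed by cell type. Hk1 formed 91.1% (80.4-97) and 73.5% (58.9-85.1) of hexokinase UMIs in T cell-like cells and 83% (74.2-89.8) and 82.6% (71.6-90.7) in NK cell-like cells. Hk2 led in Ly6C high monocytes with 67.9% (62.5-73) and 61.2% (53.4-68.5), at levels of 88.5 CPM and 95.5 CPM. Hk3, the isoform of granulocytes, was the largest share in neutrophil-like cells, with 56.5% (49.6-63.2) and 46.7% (36.9-56.7) in control and Adipo Δ/Δ cells, and in the latter the interval overlaps that of Hk2 at 41% (31.5-51). Its level there was 114 CPM (95-137) and 92.9 CPM (68.7-123). No UMI of Hk3 was found in the T cell-like cells, 356 and 240 in number, which allows shares of cells with a UMI of up to 0.843% and 1.25%. Among phosphofructokinases, the platelet-type Pfkp was highest in NK cell-like cells, at 143 CPM (124-164) and 151 CPM (131-174), while the muscle type Pfkm had 22 and 24 UMIs in all cells of each library. Pfkl stayed between 9.48 CPM and 35.5 CPM in the 13 populations compared. Gpi1 and Pkm, the enzymes after hexokinase and at the end of the pathway, were again highest in control neutrophil-like cells, at 457 CPM and 691 CPM. The brain-type aldolase Aldoc was highest in dendritic cell-like cells, at 17.1 CPM and 21.6 CPM, but formed 8.04% and 8.99% of aldolase UMIs there, the rest being Aldoa.

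Enolase, which forms phosphoenolpyruvate, differed between monocyte clusters. Eno3, known as the muscle enolase (chr11:70657202-70662513 on GRCm38, plus strand), stood at 397 CPM (352-446) and 395 CPM (345-451) in the 2 libraries in the monocyte cluster led by Cd300e and Ace, a Ly6C low cluster. The next highest cluster, Ly6C low cells led by Gngt2, had 70.5 CPM (55.1-89) and 44.8 CPM (28.7-66.6). Ly6C high monocytes had 4.46 CPM and 6.43 CPM. Eno3 thus supplied 76.8% (72.1-81) and 70% (64.6-75) of enolase UMIs in the Ace cluster, against 2.58% and 2.78% in Ly6C high monocytes, where Eno1 made up the rest. A UMI of Eno3 was found in 51.2% and 45.6% of Ace cluster cells, and in 1.69% and 2.5% of T cell-like cells, at median depths of 2337 and 1820.5 UMIs against 3487.5 and 3723. P4ha1 was also highest in the Ace cluster, at 83.9 CPM (64-108) and 114 CPM (87.3-145). UMIs of Eno1 may include some of its near-identical copy, listed apart as Eno1b.

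**Figure D2:**
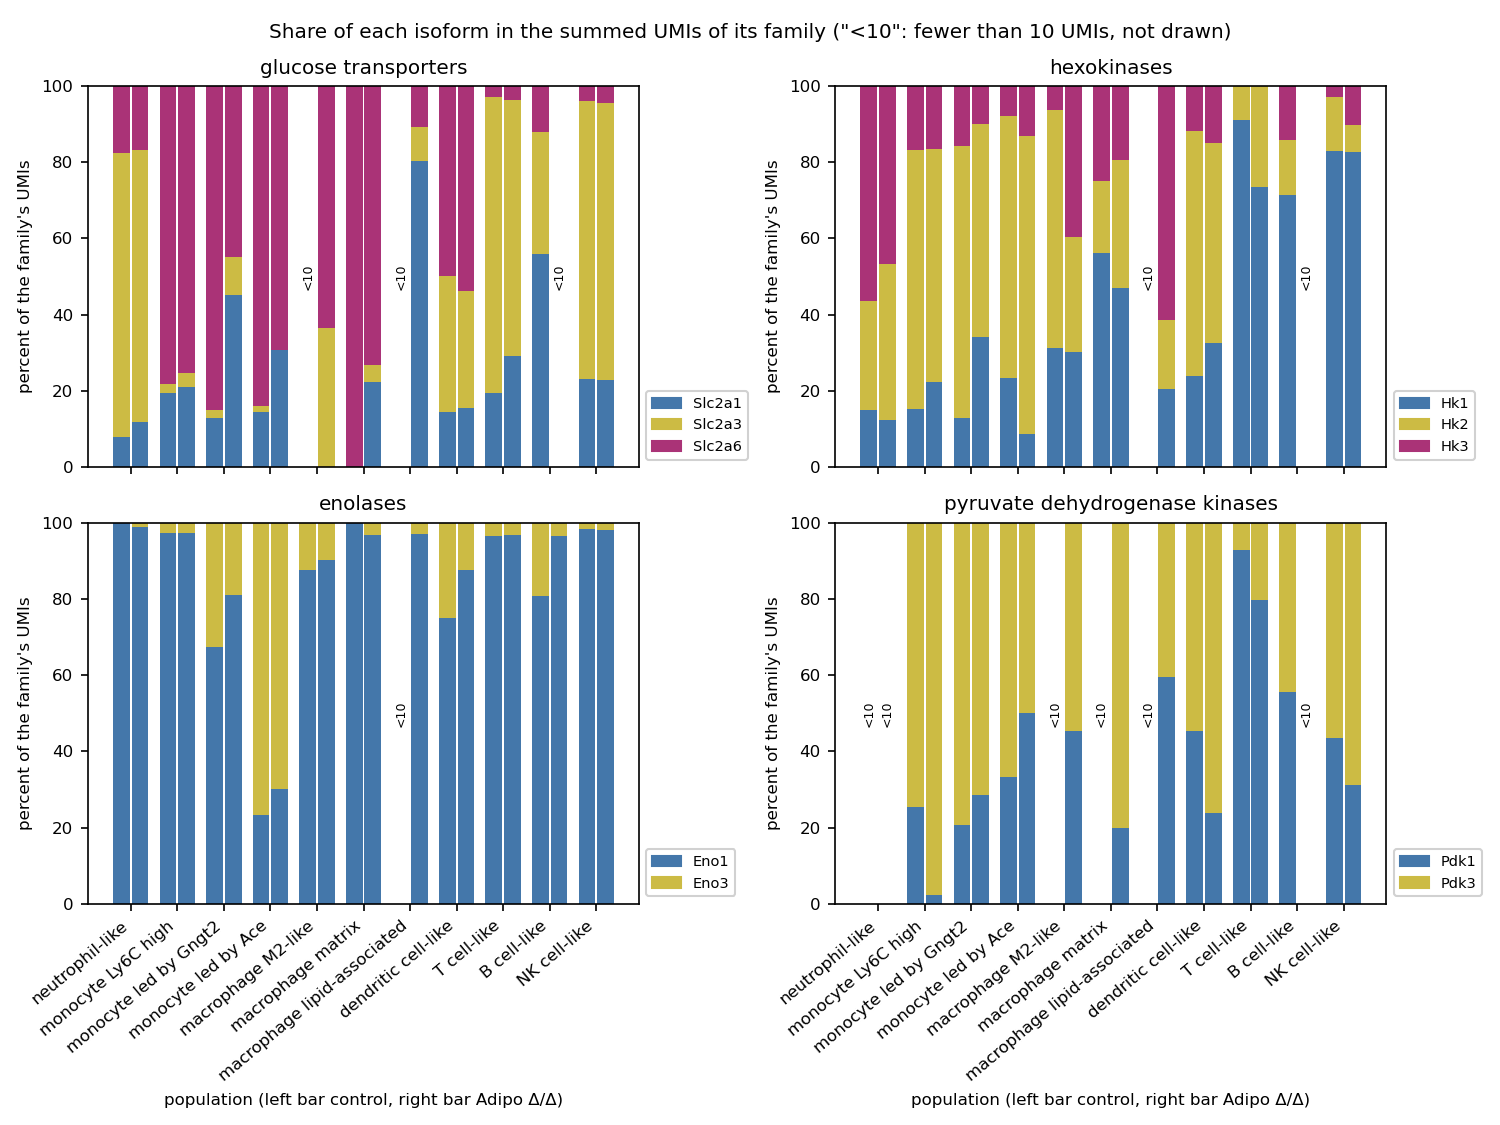
Share of each isoform in the summed UMIs of 4 families (percent, stacked bars, control left and Adipo Δ/Δ right) in 11 populations. Eno3 filled 76.8% and 70% of the enolase bar in the monocyte cluster led by Ace and at most 32.6% elsewhere.

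The lactate genes differed by cell type. Slc16a3, which encodes the lactate exporter MCT4, stood at 431 CPM (392-472) and 552 CPM (490-619) in neutrophil-like cells and at 158 CPM and 170 CPM in the Ace cluster. Slc16a1, the transporter MCT1, was highest in T cell-like cells, at 14.9 CPM and 18.6 CPM, and no UMI was seen in 314 and 173 neutrophil-like cells, which allows shares of cells with a UMI of up to 0.955% and 1.73%. Ldhb, the isoform that favours lactate as a substrate, was counted mainly in Ly6C high monocytes, at 25.6 CPM (19.6-32.7) and 34.9 CPM (24.7-47.9), and in T cell-like cells at 17.5 CPM and 10.1 CPM. It was absent from the counts of NK cell-like cells, with 0 of 374 and 0 of 421 lactate dehydrogenase UMIs and exact upper limits of 0.981% and 0.872%.

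Of the regulators, Pfkfb4, which sets the level of fructose 2,6-bisphosphate, was highest in neutrophil-like cells at 174 CPM (150-201) and 171 CPM (137-210). Pdk1, a kinase of the mitochondrial enzyme pyruvate dehydrogenase, was highest in T cell-like cells, with 91.2 CPM (76.7-108) in the control and 55.1 CPM (43-69.5) after deletion. Its relative Pdk3 led in Ly6C high monocytes, where it made up 74.7% (64.3-83.4) and 97.6% (87.4-99.9) of the pair. Among hypoxia genes, Hif1a itself was broad and highest in matrix macrophages and neutrophil-like cells, at 156 CPM and 136 CPM in the control and at 158 CPM and 184 CPM after deletion. Bnip3, a mitophagy receptor, was highest in neutrophil-like cells, at 41.3 CPM and 45.5 CPM, and so was Egln3, with 11 and 4 UMIs. Ndrg1, a stress-induced gene, was high in Ly6C high monocytes at 86.8 CPM (75.6-99.3) and 51.4 CPM (38.8-66.8) and in neutrophil-like cells at 62.8 CPM (48.7-79.8) and 98.6 CPM (73.6-129). Egln1, the main oxygen-sensing hydroxylase, was highest in ILC2-like cells in both libraries, at 113 CPM and 99 CPM on 15 and 11 UMIs. Ero1l, an oxidase of the endoplasmic reticulum, was there at 15.1 CPM and 99 CPM on 2 and 11 UMIs. The ILC2-like cluster scored 3.67 on the mast cell or basophil list and 2.81 on the list that named it.

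The study set leukocytes from BAT whose adipocytes lack ATGL against leukocytes from control BAT. Over the 18 glycolytic enzymes and lactate dehydrogenases together, macrophage-like cells had 1839 CPM (1726-1958) in the control and 3284 CPM (3224-3344) after deletion, a ratio of 1.79 (1.67-1.91). Monocyte-like cells had 2654 CPM and 2770 CPM, a ratio of 1.04 (1.01-1.08). Neutrophil-like cells, the highest class in the control, had 3395 CPM and 2959 CPM, a ratio of 0.871 (0.821-0.925). T cell-like cells had 1411 CPM and 2014 CPM, a ratio of 1.43 (1.35-1.51). With 1 library a side, none of these ratios has an error between mice.

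**Figure D3:**
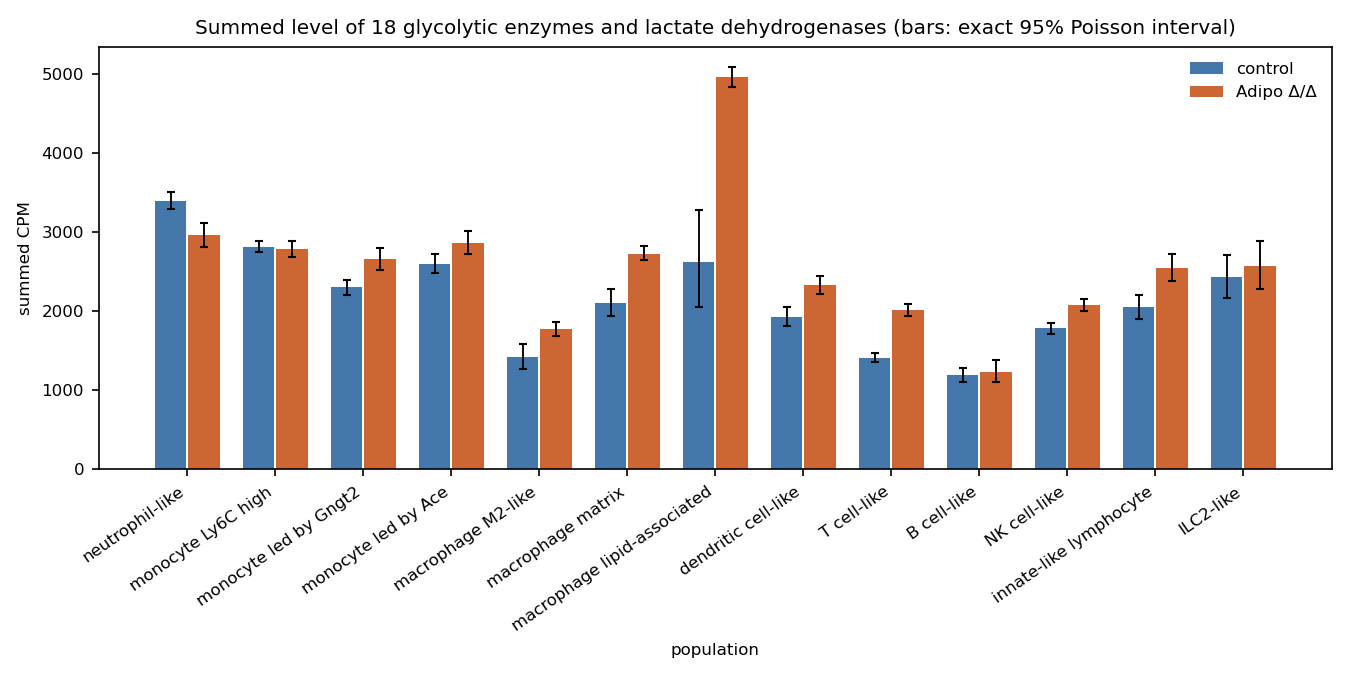
Summed CPM of the 18 glycolytic enzymes and lactate dehydrogenases in 13 populations, with exact 95% Poisson intervals. The lipid-associated macrophages of the Adipo Δ/Δ library stood highest at 4958 CPM, and B cell-like cells lowest of the 13 in both libraries.

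In macrophage-like cells 23 of the 34 genes had at least 50 UMIs over both libraries, the minimum set for a ratio. Of these, 13 were at least 1.5-fold higher in Adipo Δ/Δ cells and 0 at least 1.5-fold lower. Among all 6745 genes with as many UMIs, 19.4% were that much higher and 8.69% that much lower. The median log2 ratio was 0.67 over the set and 0.12 over all genes. The Adipo Δ/Δ library gave 3532586 of the UMIs of this class and the control 532320, so that a gene passed the minimum mainly through the Adipo Δ/Δ cells. The other 11 genes had 4 to 49 UMIs. Counts of genes past 1.5-fold describe these libraries and are not a test.

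Of the 6 genes of the lower pathway, 5 were past 1.5-fold, and the other, Eno3, was under the minimum. Pkm, pyruvate kinase, was at 229 CPM in the control against 523 CPM, a ratio of 2.28 (1.9-2.76). Eno1 was at 71.4 CPM and 184 CPM, a ratio of 2.57 (1.85-3.67), and Pgk1, phosphoglycerate kinase, at 103 CPM and 192 CPM, a ratio of 1.86 (1.41-2.49). Gapdh, often used as a reference gene, was at 404 CPM and 655 CPM, a ratio of 1.62 (1.41-1.87), and Pgam1 at 139 CPM and 234 CPM, a ratio of 1.68 (1.32-2.16). All 5 intervals lay above 1. Of the upper enzymes, Aldoa was 210 CPM and 442 CPM, a ratio of 2.1 (1.73-2.57), and Tpi1, the triose isomerase, 120 CPM and 212 CPM, a ratio of 1.76 (1.36-2.31). Ldha was 252 CPM and 401 CPM, a ratio of 1.59 (1.33-1.92), which came to 0.08 on the log2 scale with cells thinned to 1000 UMIs. Gpi1, at 1.43 (1.15-1.81), and Pfkp, at 1.4 (0.956-2.11), did not reach 1.5-fold. Higher ratios rested on few control UMIs. Hk3 had 5 control and 129 Adipo Δ/Δ UMIs, a ratio of 3.89 (1.62-12.2), P4ha1 had 6 and 135, a ratio of 3.39 (1.52-9.4) that came to 0.21 on the log2 scale with cells of at most 2% mitochondrial UMIs, and Slc2a1 had 1 and 75, a ratio of 11.3 (1.97-452). Pdk3 and Ero1l, with 5 and 6 control UMIs, were past 1.5-fold with intervals that include 1. Hif1a, the transcript of the oxygen-regulated factor, was 124 CPM and 107 CPM, a ratio of 0.865 (0.665-1.14), and Slc2a6, Slc16a3, Pfkl and Hk2 lay between 0.76 and 0.962.

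**Figure D4:**
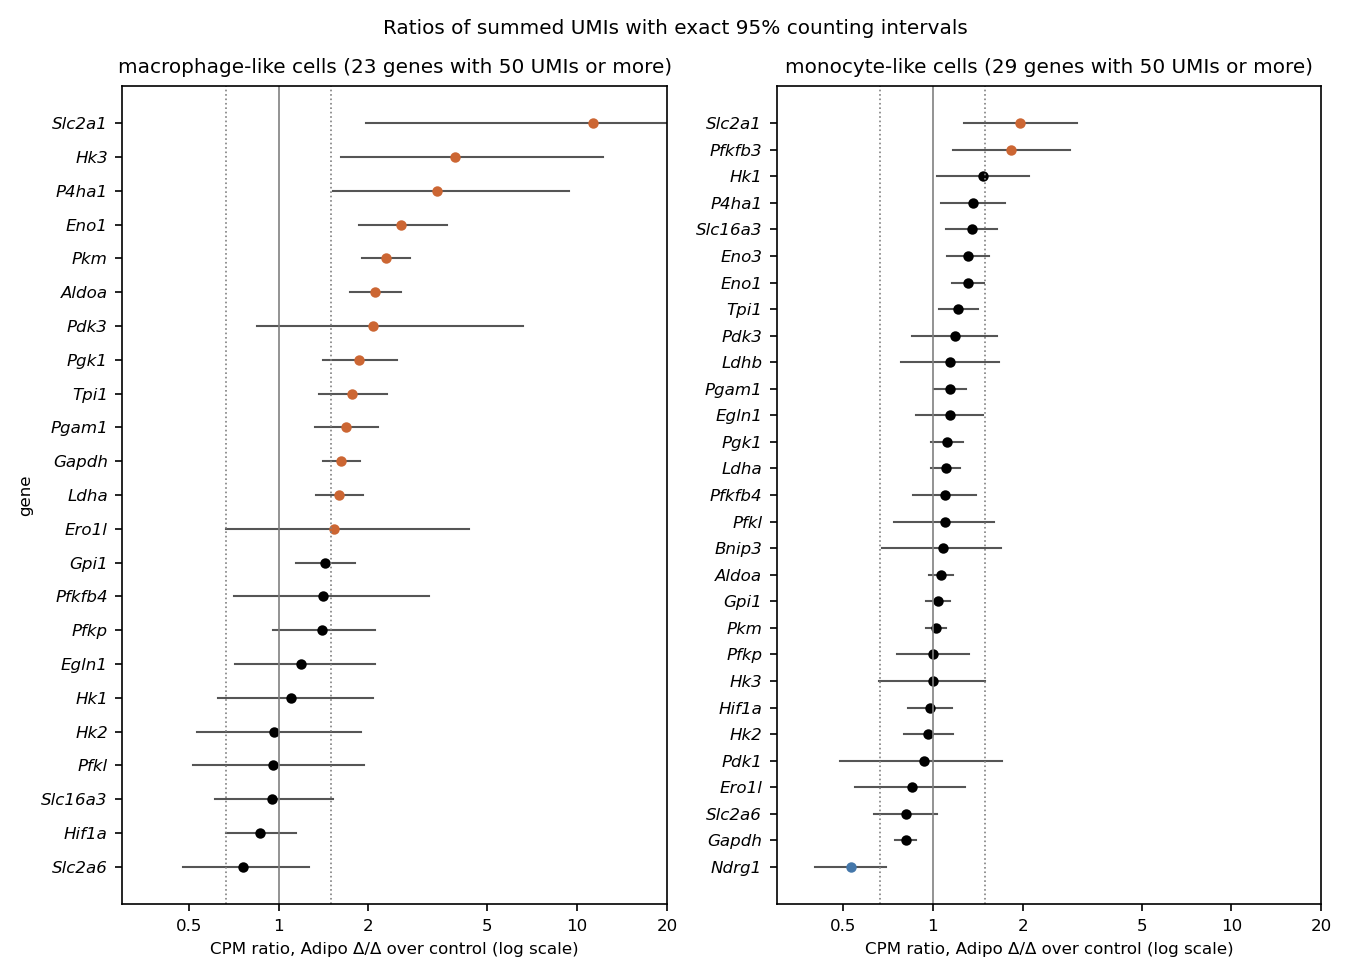
Ratio of CPM, Adipo Δ/Δ over control (log axis), with exact 95% counting intervals, for genes with at least 50 UMIs in macrophage-like (left) and monocyte-like cells (right); dotted lines mark 1.5-fold, and the Slc2a1 interval in macrophage-like cells is cut at 20. Of 23 genes on the left 13 lay past 1.5-fold to the right, and on the right 2 of 29.

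The makeup of the class differed between the libraries. By UMIs, the control class was 51.9% matrix, 42.8% M2-like and 5.32% lipid-associated, and the Adipo Δ/Δ class 38.8%, 25.4% and 35.8%. The cells also differed in depth, with medians of 3330 and 6354.5 UMIs. Lipid-associated macrophages of the Adipo Δ/Δ library had the highest levels of Gapdh (1108 CPM), Pkm (855 CPM), Aldoa (770 CPM), Ldha (589 CPM), Pgam1 (352 CPM), Eno1 (294 CPM) and Tpi1 (272 CPM) of all populations in that library, and for Pgk1 (248 CPM) they came after the dividing cells (259 CPM). Without this subset 8 of 21 genes of the macrophage-like class were at least 1.5-fold higher, against 15.4% of all genes, and the median log2 ratio was 0.34. Pkm, Eno1, Tpi1, Pgk1, Hk3, P4ha1, Pdk3 and Pfkp were then past 1.5-fold, and Gapdh, Ldha, Aldoa and Pgam1 were not, at log2 ratios of 0.04, 0.26, 0.43 and 0.34. With the 3 subsets weighted to a common makeup, 14 of 23 were higher, against 25.8% of all genes, and the median log2 ratio was 0.62, a value in which 12 control cells carry the lipid-associated weight. Slc2a1, with the largest ratio in the class, was at 35.3 CPM and 35.6 CPM in lipid-associated macrophages, on 1 and 45 UMIs. It had 0 and 30 UMIs in matrix macrophages, and 0 in M2-like macrophages of both libraries.

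In the M2-like and matrix subsets the ratios were smaller. The summed enzymes were 1418 CPM (1268-1581) and 1778 CPM (1692-1867) in M2-like macrophages, a ratio of 1.25 (1.11-1.42), and 2107 CPM (1939-2285) and 2727 CPM (2641-2816) in matrix macrophages, a ratio of 1.29 (1.19-1.42). In M2-like cells 3 of 10 genes were at least 1.5-fold higher, Eno1, Aldoa and Pgk1, against 17.2% of all genes, and 0 lower, against 4.89%. In matrix cells 4 of 15 were higher, Eno1, Tpi1, Pkm and Pfkp, against 18.3%, and 0 lower, against 4.79%. Both counts rest on few genes. Eno1 was past 1.5-fold in both, at 1.69 (0.957-3.2) and 1.77 (1.13-2.93), and Gapdh was not in either, at 1.05 (0.818-1.35) and 1 (0.822-1.24). In lipid-associated cells 10 of 14 were higher, against 39.9% of all genes, and 1 lower, Slc16a3 on 2 control UMIs, against 18.5%. These counts rest on few control UMIs and were reached through the Adipo Δ/Δ cells, which held 1263130 UMIs against 28300. Of the 10, Hif1a and Pfkp had 1 control UMI, Pgk1 2, and Eno1 and Gpi1 3. Hk3 had 0, and its 64.1 CPM in Adipo Δ/Δ cells lay under the 106 CPM that 3 control counts amount to, so no fold can be given. That comparison set 103 Adipo Δ/Δ cells against 12 control cells, with medians of 11722 and 1321 UMIs per cell, and a cluster held almost wholly by 1 library may be that library rather than a cell type. Of 9 adipocyte transcripts, which summed to 1166 CPM and 257 CPM in this cluster, 8 and 6 were at 0, and all 33 control UMIs were of Fabp4, a gene that macrophages also express.

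Transcripts of other cells were counted in the macrophage-like class as well. The 7 neutrophil markers summed to 1570 CPM in the control and 190 CPM after deletion, with none at 0, and 5 erythroid markers to 60.1 CPM and 6.23 CPM, with 1 at 0 in each, Alas2. The 9 adipocyte transcripts were at 107 CPM and 129 CPM, with 2 and 0 at 0, 5 endothelial ones at 3.76 CPM and 4.25 CPM, 5 fibroblast ones at 7.51 CPM and 2.55 CPM, and 10 genes of the dissociation response at 1638 CPM and 1741 CPM. Their part in the ratios was not tested.

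Of 69 other genes of the pathway, 31 had enough UMIs in macrophage-like cells, and 6 were at least 1.5-fold higher and 1 lower, with a median log2 ratio of 0.24 against 0.12 over all genes. The share of these genes past 1.5-fold upward was at the 19.4% of all genes. Those at least 2-fold apart were Hilpda, a lipid droplet protein induced by HIF, at 3.76 CPM and 16.1 CPM (2 and 57 UMIs) with a ratio of 4.29 (1.14-36.3), and Mif, a cytokine, at 75.1 CPM and 201 CPM with a ratio of 2.67 (1.94-3.78). In monocyte-like cells 3 of 34 were higher, near the 7.25% of all genes, and 0 lower, against 2.26%, with a median log2 ratio of 0.04 against 0.10.

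Monocyte-like cells, the class with the most UMIs over both libraries, had few genes past 1.5-fold. Of 29 genes with enough UMIs, 2 were at least 1.5-fold higher, against 7.25% of all genes, and 1 lower, against 2.26%. The median log2 ratio was 0.13, and 0.10 over all genes. Slc2a1 was at 10.8 CPM and 21.1 CPM, a ratio of 1.96 (1.27-3.03), and Pfkfb3, an activator of phosphofructokinase, at 10.3 CPM and 18.8 CPM, a ratio of 1.83 (1.16-2.88). Ndrg1 was at 61.2 CPM and 32.6 CPM, a ratio of 0.533 (0.404-0.695). The other 26 ratios lay between 0.81 and 1.47, and Pkm, Gpi1 and Aldoa at 1.02 (0.947-1.1), 1.04 (0.945-1.14) and 1.06 (0.968-1.17). Gapdh was slightly lower at 0.81 (0.749-0.875). The Ace cluster was 17.1% of control and 25.4% of Adipo Δ/Δ monocyte UMIs. In Ly6C high monocytes by themselves Ndrg1 had a ratio of 0.592 (0.433-0.798), and Hk1 of 1.75 (1.12-2.74). Slc2a1 was there at 9.74 CPM and 11 CPM, a ratio of 1.13 (0.515-2.35). Its ratio was 2.82 (1.28-6.41) in the cluster led by Gngt2 and 2.29 (0.954-5.89) in the Ace cluster. In each of these 3 clusters Slc2a1 was under the minimum of 50 UMIs. The 10 macrophage markers summed to 2250 CPM and 3230 CPM in monocyte-like cells, with 1 and 0 at 0, and their part in these ratios was not tested.

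In T cell-like cells 7 of 17 genes were at least 1.5-fold higher, against 17.4% of all genes, and 2 lower, Pdk1 and P4ha1, against 2.51%. Ldha was at 182 CPM and 329 CPM, a ratio of 1.81 (1.55-2.11), and Pfkp at 34.9 CPM and 75.3 CPM, a ratio of 2.16 (1.53-3.07). The T cell clusters differed in size between the libraries. The cluster led by Cd3g, Trac and Cd8a, which lacks Lef1 and Dapl1 among its leading genes, held 24.5% and 42.8% of T cell UMIs in control and Adipo Δ/Δ. Within it 9 of 12 genes were at least 1.5-fold higher, against 24.5% of all genes, and 0 lower, against 3.86%, and the median log2 ratio was 0.66 against 0.30. Ldha was there at 235 CPM and 461 CPM, a ratio of 1.96 (1.54-2.53), and Gapdh at 417 CPM and 659 CPM, a ratio of 1.58 (1.31-1.92). The summed enzymes of the cluster were 1734 CPM and 2725 CPM, a ratio of 1.57 (1.43-1.73), with median depths of 2805.5 and 2765 UMIs per cell. In the clusters led by Lef1 and Dapl1 the enzymes had ratios of 1.12 (0.998-1.25) and 1.16 (1.04-1.29). Ldha was higher in one of these as well, at 1.76 (1.32-2.35) where Dapl1 led, and was at 1.14 (0.828-1.57) where Lef1 led. Pdk1, at 0.604 (0.448-0.81) over the class, was at 0.554 (0.298-0.974) and 0.696 (0.456-1.05) in the Lef1 and Dapl1 clusters and at 0.846 (0.382-1.91) in the Cd3g cluster, below 1 in all of them.

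Neutrophil-like cells had 2 of 19 genes at least 1.5-fold higher, against 21.5% of all genes, and 1 lower, against 3.36%. Slc2a1 had a ratio of 1.6 (1.06-2.4), Ndrg1 of 1.57 (1.07-2.29) and Gapdh of 0.658 (0.576-0.75), from 869 CPM to 572 CPM. The median of the set was 0.04 on the log2 scale, below the 0.27 of all genes. In dendritic cell-like cells 4 of 11 were higher, against 13.3%, and 0 lower, against 3.57%. Tpi1 was at 57 CPM and 120 CPM there, a ratio of 2.1 (1.38-3.29), and Eno1 at 85.5 CPM and 170 CPM, a ratio of 1.98 (1.4-2.85). In NK cell-like cells 1 of 18 was higher, Eno1 at 1.52 (1.29-1.79), against 5.79%, and 0 lower, against 2.21%. In B cell-like cells 0 of 7 were higher, against 12.0%, and 1 lower, against 4.87%, Pgk1 at 0.609 (0.272-1.24). Eno1 was above 1.2 in all 7 main classes, from 1.23 to 2.57, and Tpi1 in the 6 with enough UMIs, from 1.2 to 2.1. Intervals included 1 for Eno1 in neutrophil-like (0.94-1.61) and B cell-like cells (0.893-2.43). They also did for Tpi1 in neutrophil-like (0.746-1.92) and NK cell-like cells (0.97-1.58). In neutrophil-like cells both ratios were near the median ratio of all genes, 1.2.

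**Figure D5:**
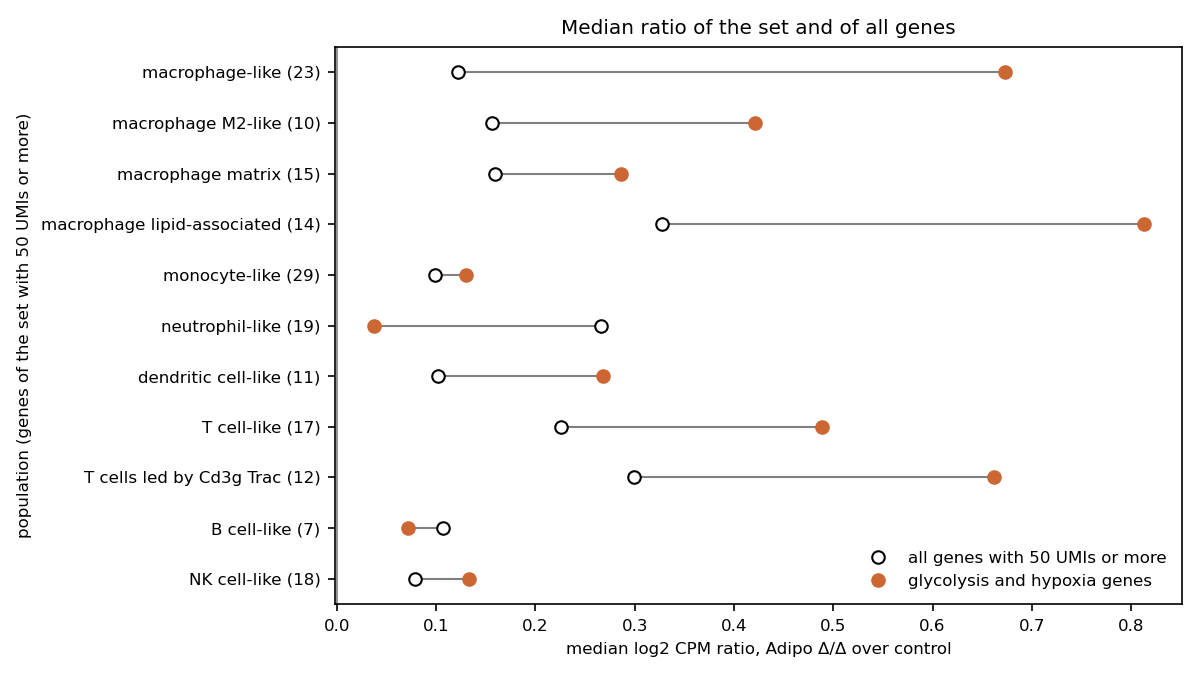
Median of the log2 ratios, Adipo Δ/Δ to control, for the genes of the set (filled) and for all genes with at least 50 UMIs (open) in 11 populations, with the number of set genes in parentheses. The set lay at 0.67 against 0.12 in macrophage-like cells, at 0.13 against 0.10 in monocyte-like cells, and below all genes in neutrophil-like cells.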

How the data were processed

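The labels and the processing notes name mm10 and Cell Ranger, with which the authors aligned reads and counted UMIs. The deposited values are raw counts per gene and barcode, without normalization, for 1 library per condition. Barcodes with at least 200 genes and at most 10% mitochondrial UMIs were used. The 2% limit that the study names passes 51.4% and 37.7% of the deposited barcodes in control and Adipo Δ/Δ. The study reports more cells left after its filters than this limit passes here, and the difference was not resolved. Libraries were normalized with sctransform 0.4.2 and integrated in Seurat 5.3.0 (R 4.3.3) with 1984 features, 20 principal components and a resolution of 1. Features for clustering were 2000 before genes of the pathway were dropped. Scrublet in Scanpy 1.11.5 called 0.308% and 0.252% of barcodes as doublets. These few calls were not removed, so doublets were in effect left in.

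The members and lists were chosen with earlier results of these data known. A cluster name needed 3 or more markers present in 10% or more of its cells and a mean log2 fold of 1 or above (prior 10 CPM), thresholds set after the data were seen. UMIs were summed per class and library. Poisson, Clopper-Pearson and conditional binomial intervals (SciPy 1.17.1, tested on simulated data) cover counting error only. With 1 library per condition no test was run. Called genes had at least 50 UMIs over both libraries and a ratio of at least 1.5 either way. Genes were named where their top population was at least 3 times the median of populations, where they passed 1.5-fold in macrophage-like or monocyte-like cells, or where they were the most abundant of their role. A count of 0 was read as up to 3 counts. Alternatives varied 1 choice at a time. Flow cytometry, imaging and the reads were not used here. Gene positions are from GENCODE on GRCm38.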

Additional observations from a re-analysis of the deposited data

Results flagged for a closer look

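For 4 genes the difference between the libraries took opposite directions in separate classes, each past 1.5-fold, and with 1 library per condition the difference between classes was not tested. Gapdh had a ratio of Adipo Δ/Δ to control of 1.62 (1.41-1.87) in macrophage-like cells and of 0.658 (0.576-0.75) in neutrophil-like cells. Without the lipid-associated subset the macrophage value came to 0.04 on the log2 scale. Pgk1 had ratios of 1.86 (1.41-2.49) in macrophage-like and 0.609 (0.272-1.24) in B cell-like cells, the latter on 40 and 10 UMIs. P4ha1 had ratios of 3.39 (1.52-9.4) in macrophage-like and 0.663 (0.37-1.16) in T cell-like cells, on 6 and 135 and on 38 and 21 UMIs. Ndrg1 had ratios of 1.57 (1.07-2.29) in neutrophil-like and 0.533 (0.404-0.695) in monocyte-like cells. The Pgk1 value in B cell-like and the P4ha1 value in T cell-like cells have counting intervals that include 1.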

How the results depend on the processing

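No paired analysis was possible because each condition is 1 library and no test was run. Under 22 alternatives, 17 of them planned, no median and no ratio of the genes past 1.5-fold changed direction in macrophage-like or monocyte-like cells. Settings in which a ratio was not finite were skipped for that gene. The recomputed counts add both directions, so a change of direction could not show in them. The other classes, the subsets and the isoform shares were not recomputed. In macrophage-like cells the count of 13 genes past 1.5-fold ranged from 7 to 19. The upper end is given without the share of all genes and by itself says nothing about the set. The count was 7 with a 2-fold limit (7.49% of all genes higher, 1.82% lower) and 8 with the lipid-associated subset left out (15.4% and 4.28%), an alternative chosen after seeing the data. The median log2 ratio of 0.67 was 0.50 and 0.52 with mitochondrial limits of 5% and 2%, 0.57 as the mean of per-cell CPM, 1.02 with thinned cells, 0.96 without the matrix subset and 0.34 without the lipid-associated one. In monocyte-like cells the count of 3 was 7 with thinned cells (4 higher and 3 lower, against 18.7% and 10.5% of all genes), 6 with no minimum of UMIs (3 and 3, against 21.8% and 16.6%) and 0 with a 2-fold limit (against 1.71% and 0.457%). Their median of 0.13 was 0.00213 with the median-of-ratios factor, which moved the median of all genes from 0.10 to -0.03 and the shares of all genes past 1.5-fold to 4.26% higher and 4.12% lower. The cause of these moves was not tested beyond what each setting leaves out. Of the other summary values 82 stayed close, and of values for single genes 294 did and 30 moved. The 24 genes with the same highest class ranged from 18 to 26. Depth limits the genes with few control macrophage UMIs, such as Slc2a1, Hk3, P4ha1, Pdk3 and Ero1l.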

Other observations

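Outside the classes compared, the dividing cells (18 and 35 cells) had 2367 CPM and 3577 CPM of the glycolytic enzymes and lactate dehydrogenases, a ratio of 1.51 (1.36-1.69). Innate-like lymphocytes (37 and 42 cells) had 2046 CPM and 2545 CPM, a ratio of 1.24 (1.13-1.37). The cluster led by Gm26917, with medians of 962.5 and 912 UMIs per cell, had 1714 CPM and 2135 CPM, a ratio of 1.25 (1.04-1.51). Plasma cell-like cells (12 and 8 cells) were the lowest, at 566 CPM and 620 CPM. ILC2-like cells (37 and 29 cells) had 2428 CPM and 2565 CPM, and Ldha was there at 552 CPM and 315 CPM.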
